A study of Homo sapiens with 2 samples.

Results

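Gene desert peaks are the H4K5ac peaks of FaDu cells whose summit lay more than 500 kb from the span of every RefSeq protein-coding gene on chromosomes 1 to 22. They were chosen by position only. They numbered 9618 of 258195 peaks in the hypoxia list and 3961 of 120033 in the normoxia list, 13579 of 378228 in all. H4K5ac, histone H4 acetylated at lysine 5, was mapped by chromatin immunoprecipitation followed by sequencing (ChIP-seq). FaDu is an established cell line from a human squamous carcinoma of the hypopharynx. The hypoxia library came from cells held at 1% oxygen for 18 h, and the normoxia library from cells for which the labels give no oxygen level. Each condition had 1 library, so the condition could not be tested and p-values are absent throughout. The study's design text names a histone mark other than the one in the sample labels, and the labels were followed. A METTL4 knockdown appears in the growth protocol, but the labels tie it to neither library.

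Gene deserts are long stretches of the genome without protein-coding genes. Many lie beside genes of development and cell adhesion, and some are known to hold enhancers that act on a promoter far away. Histone H4 acetylated at lysine 5 marks open, active chromatin, where bromodomain proteins bind it, and it is found at promoters and enhancers. Deserts also hold many genes for long non-coding RNAs (lncRNAs), transcripts that code for no protein and start at promoters of their own.

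The promoters printed here are those of desert lncRNA genes that carried gene desert peaks. They show desert promoters in 3 situations: LINC00662, LINC02226 and LINC02015 had a peak in both lists, LINC01815 and LINC00879 in hypoxia only, and LINC02103 in normoxia only. Each window runs from 250 bases before to 50 bases after the transcription start, 5′ to 3′ on the gene's own strand, from RefSeq (GRCh38.p14). Capitals mark the cores ACGTG and GCGTG, searched on both strands, which are the letters read by hypoxia-inducible factor (HIF). The windows lay at chr19:27793891-27794190 (minus strand), chr5:8457515-8457814 (minus), chr3:177816615-177816914 (plus), chr2:81466897-81467196 (minus), chr3:94938013-94938312 (plus) and chr5:28287616-28287915 (minus). All 300 bases of the LINC02226 window lay under its hypoxia and its normoxia peak, and all 300 of the LINC00879 window under its hypoxia peak. The other windows lay partly outside: under the hypoxia peak were 61 bases of LINC00662, 85 of LINC02015 and 213 of LINC01815, and under the normoxia peak 102 bases of LINC00662, 171 of LINC02015 and 90 of LINC02103.
LINC00662: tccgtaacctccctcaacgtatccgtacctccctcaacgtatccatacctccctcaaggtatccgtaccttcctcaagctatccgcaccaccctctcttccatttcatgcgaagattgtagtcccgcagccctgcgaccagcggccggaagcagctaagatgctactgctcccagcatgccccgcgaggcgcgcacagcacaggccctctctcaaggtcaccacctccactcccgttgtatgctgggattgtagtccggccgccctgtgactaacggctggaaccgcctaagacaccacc
LINC02226: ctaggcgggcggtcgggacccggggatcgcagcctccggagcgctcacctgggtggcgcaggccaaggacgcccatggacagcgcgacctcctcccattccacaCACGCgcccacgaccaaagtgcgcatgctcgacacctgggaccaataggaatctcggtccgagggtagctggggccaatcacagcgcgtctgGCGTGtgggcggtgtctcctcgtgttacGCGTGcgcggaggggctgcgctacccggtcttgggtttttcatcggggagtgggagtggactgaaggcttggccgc
LINC02015: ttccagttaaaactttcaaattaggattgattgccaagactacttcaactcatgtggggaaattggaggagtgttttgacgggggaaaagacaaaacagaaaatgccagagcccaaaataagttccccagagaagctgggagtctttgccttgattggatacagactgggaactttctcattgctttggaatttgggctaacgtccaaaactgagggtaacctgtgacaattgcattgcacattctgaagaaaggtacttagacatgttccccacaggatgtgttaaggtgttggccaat
LINC01815: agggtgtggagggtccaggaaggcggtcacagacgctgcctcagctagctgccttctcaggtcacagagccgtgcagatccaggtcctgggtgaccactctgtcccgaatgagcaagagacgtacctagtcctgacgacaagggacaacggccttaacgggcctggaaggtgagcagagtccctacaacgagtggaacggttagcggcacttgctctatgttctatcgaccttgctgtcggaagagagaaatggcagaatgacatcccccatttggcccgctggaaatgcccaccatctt
LINC00879: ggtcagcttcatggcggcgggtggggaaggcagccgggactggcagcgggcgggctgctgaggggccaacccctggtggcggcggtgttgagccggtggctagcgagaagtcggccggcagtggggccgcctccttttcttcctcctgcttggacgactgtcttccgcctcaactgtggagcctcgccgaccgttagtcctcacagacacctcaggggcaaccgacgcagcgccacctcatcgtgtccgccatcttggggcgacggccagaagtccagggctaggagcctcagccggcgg
LINC02103: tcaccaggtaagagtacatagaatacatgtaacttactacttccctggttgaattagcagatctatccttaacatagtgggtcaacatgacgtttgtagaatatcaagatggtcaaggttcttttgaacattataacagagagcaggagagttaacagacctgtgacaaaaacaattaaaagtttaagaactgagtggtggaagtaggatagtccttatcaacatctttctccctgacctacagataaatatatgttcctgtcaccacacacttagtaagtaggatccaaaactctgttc
LINC02226 held 3 HIF cores and 31 CpG dinucleotides in its window. LINC00879 held 26 CpG and LINC00662 held 20, without a HIF core. LINC02103 held 1 CpG and LINC02015 held 2, so the printed windows ranged from CpG-rich to CpG-poor.

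Gene desert peaks made up 3.78% of autosomal hypoxia peaks (95% exact binomial interval 3.71 to 3.86%) and 3.36% of autosomal normoxia peaks (3.25 to 3.46%). Intervals throughout cover counting error only, since peaks are not replicates. The hypoxia list held 2.43 times as many desert peaks as the normoxia list (2.34 to 2.52), and 2.14 times as many peaks elsewhere on the autosomes (2.13 to 2.16). From 10 kb outward, peaks thinned out with distance from genes in both lists. Beyond 500 kb, in deserts without a centromere or chromosome end, there were 40.4 hypoxia and 16.3 normoxia peaks per Mb, and within genes 113 hypoxia and 54.1 normoxia peaks per Mb. A list of the strongest hypoxia peaks, as long as the normoxia list, left 4315 hypoxia desert peaks and a ratio of 1.09 (1.04 to 1.14). When the distance was taken to every RefSeq gene, non-coding ones and pseudogenes included, only 195 hypoxia and 252 normoxia peaks remained, a ratio of 0.774 (0.639 to 0.937). The 10 fullest of the deserts left held 91.3% of these hypoxia and 92.5% of these normoxia peaks, so this ratio rests on few places.

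Desert peaks were narrower than the remainder of each list, and fewer of them were strong, but peaks 200 to 500 kb from genes were much alike. Their median width was 282 bp in hypoxia (quartiles 230 and 403) and 304 bp in normoxia (256 and 416), against 295 bp in the remainder of the hypoxia list and 358 bp in that of the normoxia list. The authors' −log10 q-value of a peak, a measure of its evidence within its own list, had a median of 4.50 among hypoxia desert peaks, close to the 4.54 of other autosomal hypoxia peaks, and 3.37 among normoxia desert peaks, against 4.42 among other autosomal normoxia peaks. The median fold enrichment was 3.77 at hypoxia and 3.39 at normoxia desert peaks, against 3.46 at other hypoxia and 3.35 at other normoxia peaks. A peak was called strong where this value was at least 10. Strong peaks were 12.3% of hypoxia desert peaks, beside 18.8% of all autosomal hypoxia peaks, and 9.34% of normoxia desert peaks, beside 24.9% of all autosomal normoxia peaks. At 200 to 500 kb from genes the median width was 281 bp in hypoxia and 303 bp in normoxia. There, 11.6% of hypoxia and 10.9% of normoxia peaks were strong, so these traits were not particular to deserts. Desert peaks covered 3.39 Mb in hypoxia and 1.47 Mb in normoxia.

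The difference between the lists was larger among strong desert peaks than among strong peaks elsewhere. The hypoxia list had 1185 strong desert peaks and the normoxia list 370, which is 3.20 times as many in hypoxia (2.85 to 3.61). Elsewhere on the autosomes the ratio of strong peaks was 1.61 (1.59 to 1.63). Most of those lay within genes, with 27492 strong hypoxia and 18121 strong normoxia peaks. At 200 to 500 kb from genes there were 1812 strong hypoxia and 694 strong normoxia peaks. The difference was thus already larger there than within genes, and not particular to deserts. The gap lay mostly in the middle range: peaks with a −log10 q-value from 10 to 20 numbered 882 for hypoxia and 218 for normoxia in deserts (ratio 4.05, 3.48 to 4.71), against 1.70 (1.66 to 1.74) elsewhere. From 20 upward the hypoxia list had 303 and the normoxia list 152 in deserts (ratio 1.99, 1.64 to 2.44), against 1.54 (1.51 to 1.57) elsewhere.

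The ordering was the same when peaks were counted by reads, a measure that is not independent of the q-value. The reads covering a summit were solved from the deposited fold and p-value. Peaks with at least 25 such reads numbered 1234 for hypoxia and 437 for normoxia in deserts (ratio 2.82, 2.53 to 3.16), against 1.72 (1.70 to 1.74) elsewhere. With at least 50 reads there were 170 hypoxia and 92 normoxia peaks, a ratio of 1.85 (1.43 to 2.41), against 1.51 (1.49 to 1.54). With at least 100 reads there were 36 hypoxia and 10 normoxia peaks, a ratio of 3.6 (1.75 to 8.13), against 1.97 (1.91 to 2.03). At 50 and at 100 reads the desert interval included the ratio elsewhere. The local background, solved in the same way, had a median of 3.24 reads at hypoxia and 3.13 reads at normoxia desert peaks, against 4.30 reads at other hypoxia and 5.24 reads at other normoxia autosomal peaks. It sat at the lowest value of its list for 73.9% of hypoxia and 55.5% of normoxia desert peaks, and its part in the numbers of peaks called was not tested. At that lowest background a strong peak needed 23 reads in either list, so there a count at 25 reads nearly repeats the count of strong peaks. Reads were not scaled for depth. Where a single peak of each list met, the median was 20 reads in hypoxia and 15 in normoxia in deserts. Elsewhere it was 32 in hypoxia and 26 in normoxia.

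**Figure D1:**
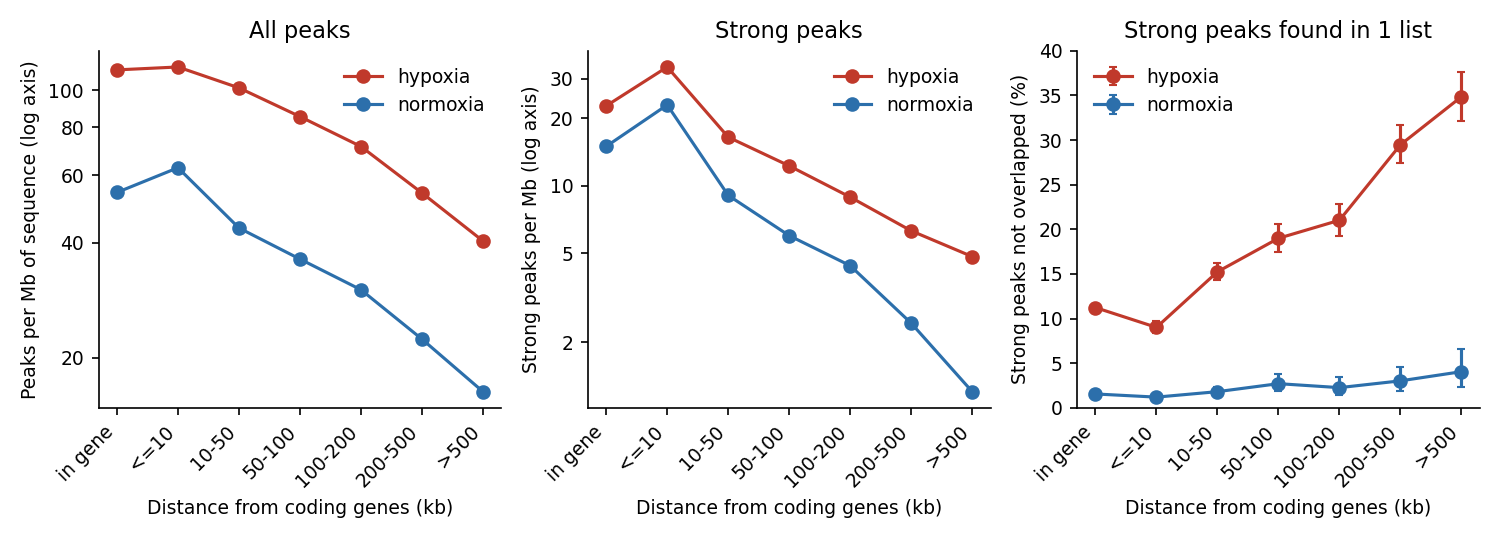
Peaks per Mb of sequence (left), strong peaks per Mb (middle, both on log axes) and the percentage of strong peaks that no peak of the other list overlapped (right, with 95% exact binomial intervals), by distance from protein-coding genes, for hypoxia (red) and normoxia (blue). Beyond 500 kb, in deserts without a centromere or chromosome end, the lists had 4.83 strong peaks per Mb in hypoxia and 1.20 in normoxia. Over all deserts, 34.9% of strong hypoxia peaks but 4.05% of strong normoxia peaks had no counterpart.

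In the lists as deposited, most hypoxia desert peaks had no normoxia counterpart, whereas most normoxia desert peaks had a hypoxia one. No peak of the other list overlapped 7279 hypoxia desert peaks (75.7%) and 1615 normoxia desert peaks (40.8%). Over all autosomal peaks these percentages were 67.4 in hypoxia and 31.3 in normoxia. At 200 to 500 kb from genes they were 75.8 in hypoxia and 41.6 in normoxia, much as in deserts. The contrast depended on the length of the lists: with the hypoxia list shortened to that of the normoxia list, 36.9% of hypoxia desert peaks (35.45 to 38.4%) and 42.3% of normoxia desert peaks (40.7 to 43.8%) were overlapped, so that most peaks of either list had no counterpart. Merged across the lists, the peaks formed 11116 desert regions, of which hypoxia peaks alone made 7279 (65.5%), normoxia peaks alone 1615 (14.5%) and peaks of both lists 2222 (19.99%). Where a single peak of each list met, in 2017 regions, the summits were a median of 65 bp apart, close to the 61 bp of such pairs elsewhere.

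Strong hypoxia desert peaks lacked a counterpart more often than strong hypoxia peaks nearer to genes. Without a normoxia peak were 413 of 1185 (34.9%, 32.1 to 37.6%), against 13.5% of all strong autosomal hypoxia peaks. In normoxia 15 of 370 strong desert peaks had no hypoxia peak (4.05%, 2.29 to 6.598%), against 1.66% of all strong autosomal normoxia peaks. The hypoxia share was 11.2% within genes and 9.01% up to 10 kb from them, and then grew with distance, with 15.2% at 10 to 50 kb, 21.02% at 100 to 200 kb and 29.5% at 200 to 500 kb. The 413 hypoxia peaks lay in 137 deserts, and a median of 12.6 kb separated their summits from the nearest normoxia summit, against 5.04 kb for such peaks elsewhere. Of the 772 strong hypoxia desert peaks that did meet a normoxia peak, 35.9% (32.5 to 39.4%) met a strong one, against 66.0% (65.6 to 66.5%) elsewhere.

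The gap in overlap depended on peak strength. Among weak hypoxia peaks, with a −log10 q-value under 3, the overlapped share was 12.4% in deserts (10.8 to 14.05%) and 11.2% elsewhere (10.9 to 11.5%). From 10 to 20 it was 55.4% in deserts (52.1 to 58.8%) and 73.2% elsewhere (72.6 to 73.8%). From 20 upward it was 93.4% (90.0 to 95.9%) in deserts and 99.0% (98.8 to 99.1%) elsewhere. All 152 normoxia desert peaks of at least 20 met a hypoxia peak. In percentage points, the deficit of hypoxia desert peaks was thus widest from 10 to 20. For normoxia peaks it was widest from 5 to 10, with 69.7% overlapped in deserts and 79.2% elsewhere. From 10 to 20 the normoxia shares were 93.1% in deserts and 96.4% elsewhere.

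**Figure D2:**
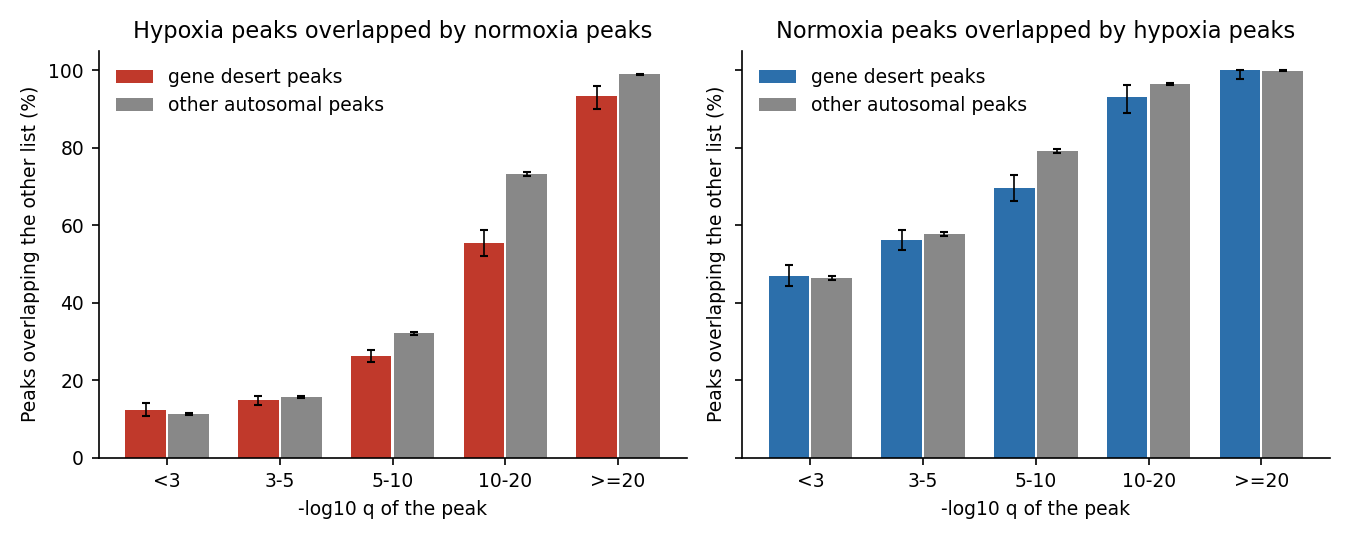
Percentage of hypoxia peaks overlapping a normoxia peak (left) and of normoxia peaks overlapping a hypoxia peak (right), by the −log10 q-value of the peak, for gene desert peaks (coloured) and other autosomal peaks (grey), with 95% exact binomial intervals. At 10 to 20 the hypoxia bars stood at 55.4% in deserts and 73.2% elsewhere, while under 3 they stood at 12.4% and 11.2%.

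The rule for membership had a threshold at 500 kb, and the peaks on either side of it are given as a description. At 500 to 510 kb there were 237 hypoxia and 99 normoxia peaks, and at 490 to 500 kb 267 hypoxia and 113 normoxia peaks. Strong peaks were 12.7% of the hypoxia peaks just inside and 13.1% of those just outside, and 9.09% of the normoxia peaks inside and 12.4% of those outside. Of the strong hypoxia peaks, 7 of 30 inside (23.3%, 9.93 to 42.3%) and 17 of 35 outside (48.6%, 31.4 to 66.01%) had no normoxia peak, so this share was lower just inside the threshold, in small numbers and with intervals that overlap. The overlapped share of hypoxia peaks was 23.6% inside and 22.1% outside, and that of normoxia peaks 59.6% inside and 52.2% outside.

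Desert peaks came in runs. Linked peaks, those with a summit of the same list within 12500 bp, were 76.5% in hypoxia (75.6 to 77.3%) and 64.8% in normoxia (63.3 to 66.3%), below the 92.8% of hypoxia and 80.7% of normoxia peaks elsewhere. Only desert peaks were chained, so that groups stop at the 500 kb limit. Chaining linked peaks gave 4191 groups in hypoxia, of which 2283 were lone peaks and 419 held 5 peaks or more. Normoxia gave 2177 groups, with 1402 lone peaks and 111 groups of 5 or more. The groups of 5 or more held 36.6% of hypoxia and 23.1% of normoxia desert peaks. A denser list links more peaks at a fixed distance, and the linked share of the hypoxia list fell to 57.5% when it was shortened to the length of the normoxia list.

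The longest runs lay beside a few genes. In hypoxia the largest held 96 peaks over 304 kb at chr22:47676779-47980681, between TBC1D22A and TAFA5, which encodes a secreted brain protein; 35 normoxia peaks fell in the same stretch. The next held 77 hypoxia peaks, beside 30 normoxia peaks, at chr5:4101366-4319692 between IRX1, a homeobox transcription factor gene, and ADAMTS16, a metalloproteinase gene. It begins at the 500 kb limit, so its start is set by the rule for membership and peaks nearer to IRX1 are not counted. The limit may also bound the run on chromosome 22, where deserts between genes held 0.596 Mb beyond it in all. The local background was high in both runs, with medians of 10.40 and 9.27 reads at the hypoxia peaks, against 3.24 over all hypoxia desert peaks; its part in their length was not tested. In normoxia the largest run held 49 peaks at chr8:114483578-114720465, between CSMD3 and TRPS1, where 37 hypoxia peaks lay. TRPS1 is a GATA-type transcription factor, and CSMD3 a large membrane protein with CUB and sushi domains.

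The genome held 324 deserts: 279 between neighbouring genes, 22 holding a centromere and 23 at chromosome ends. A peak was found in 283 of them in hypoxia and in 238 in normoxia. The 10 fullest held 18.9% of hypoxia desert peaks and 32.9% of normoxia desert peaks, and 50% of each list's desert peaks lay in 43 deserts in hypoxia and 24 in normoxia. A shorter list can fill fewer deserts. With the hypoxia list cut to the length of the normoxia list, its 10 fullest deserts held 24.4% of its desert peaks (23.1 to 25.7%). Normoxia peaks were thus still more concentrated in the 10 fullest deserts, by a smaller margin. The numbers of deserts filled were not recomputed at equal list length. Of the 150 deserts between genes with at least 500 kb of sequence beyond the limit, 149 had more hypoxia than normoxia peaks and 1 had equal numbers. Their median was 31.5 peaks per Mb in hypoxia and 5.94 in normoxia. Both comparisons carry the difference in list length, 9618 hypoxia against 3961 normoxia desert peaks.

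**Figure D3:**
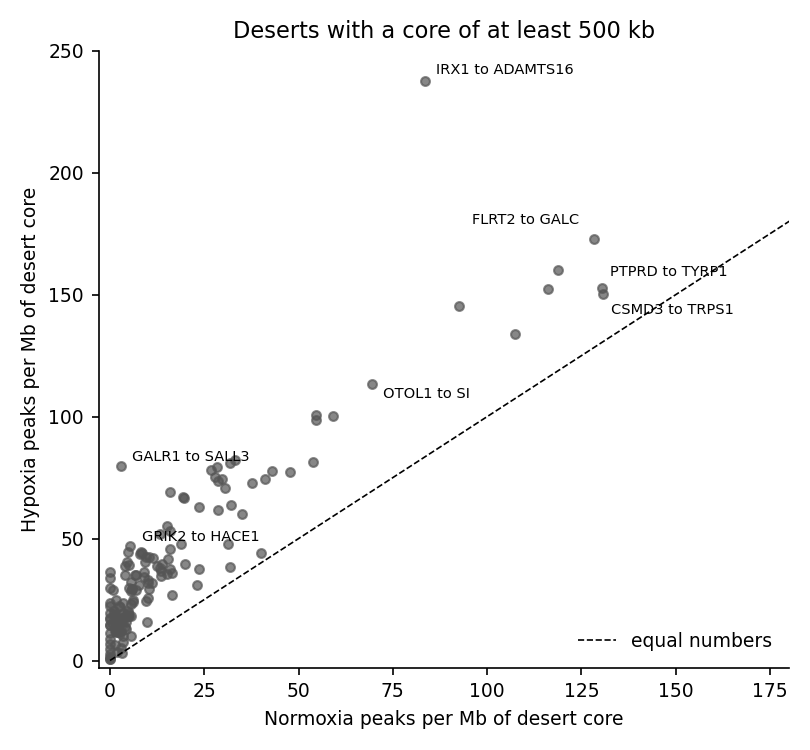
Hypoxia peaks per Mb (vertical) against normoxia peaks per Mb (horizontal) for the deserts between genes with at least 500 kb of sequence beyond the limit, 1 point per desert, with a dashed line of equal numbers. IRX1 to ADAMTS16 stood highest on the hypoxia axis at 237.5 hypoxia and 83.5 normoxia peaks per Mb, and CSMD3 to TRPS1, at 150.3 hypoxia and 130.7 normoxia peaks per Mb, lay close to the line.

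Of the 10 fullest deserts of each list 8 were the same, and in these the lists differed more in strength than in number. They held 1524 hypoxia and 1066 normoxia peaks, a ratio of 1.43, but 286 strong hypoxia and 42 strong normoxia peaks, a ratio of 6.81. These deserts were picked by their numbers of peaks. The fullest, between OTOL1, an inner ear matrix protein gene, and SI, the gene of the intestinal enzyme sucrase-isomaltase, lay at chr3:161503943-164978897. It had 281 hypoxia and 172 normoxia peaks, of which 41 in hypoxia and 8 in normoxia were strong. In this desert, 27 of the 41 strong hypoxia peaks met a normoxia peak. No summit of either list fell in 145 kb of it, from 162780370 to 162924991, the longest stretch without a peak there.

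A block of adjoining deserts on chromosome 14 came next. FLRT2, a gene of a leucine-rich adhesion protein, and GALC, a lysosomal galactosylceramidase gene, flanked 221 hypoxia and 164 normoxia peaks, with 47 strong in hypoxia and 11 in normoxia. Between SEL1L, an adaptor of endoplasmic reticulum protein degradation, and the uncharacterised LOC124903401 lay 218 hypoxia and 166 normoxia peaks, with 42 strong in hypoxia and 1 in normoxia. Between LOC124903401 and FLRT2 lay 89 hypoxia and 66 normoxia peaks, with 20 strong in hypoxia and 2 in normoxia. The ratios of all peaks were 1.35 (1.096 to 1.66), 1.31 (1.07 to 1.62) and 1.35 (0.970 to 1.88) in these 3 deserts, below the 2.43 of all deserts, while strong peaks were over 4 times as many in hypoxia in each. Most of those strong hypoxia peaks met a normoxia peak, strong or not: 30 of 47, 27 of 42 and 14 of 20.

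Among the deserts on chromosomes 8 and 9, 3 had like numbers and unlike numbers of strong peaks. PTPRD, a receptor tyrosine phosphatase gene, and TYRP1, a gene of melanin synthesis, flanked 165 hypoxia and 141 normoxia peaks, a ratio of 1.17 (0.929 to 1.48), with 41 strong in hypoxia and 1 in normoxia. Of those 41 strong hypoxia peaks, 32 met a normoxia peak. CSMD3 to TRPS1 had 146 hypoxia and 127 normoxia peaks, with 39 strong in hypoxia and 7 in normoxia, and KCNV1 to CSMD3 had 167 hypoxia and 134 normoxia peaks, with 36 strong in hypoxia and 3 in normoxia. Of the strong hypoxia peaks in these deserts, 29 of 39 and 26 of 36 met a normoxia peak. KCNV1 encodes a modifying subunit of potassium channels. The intervals of these 3 ratios of all peaks included 1, while strong peaks were 5 times or more as many in hypoxia. MYC to GSDMC, also on chromosome 8, differed in this: it had 140 hypoxia and 89 normoxia peaks, a ratio of 1.57 (1.20 to 2.08), with 19 strong in hypoxia and 8 in normoxia. Of those 19 strong hypoxia peaks, 16 met a normoxia peak.

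**Figure D4:**
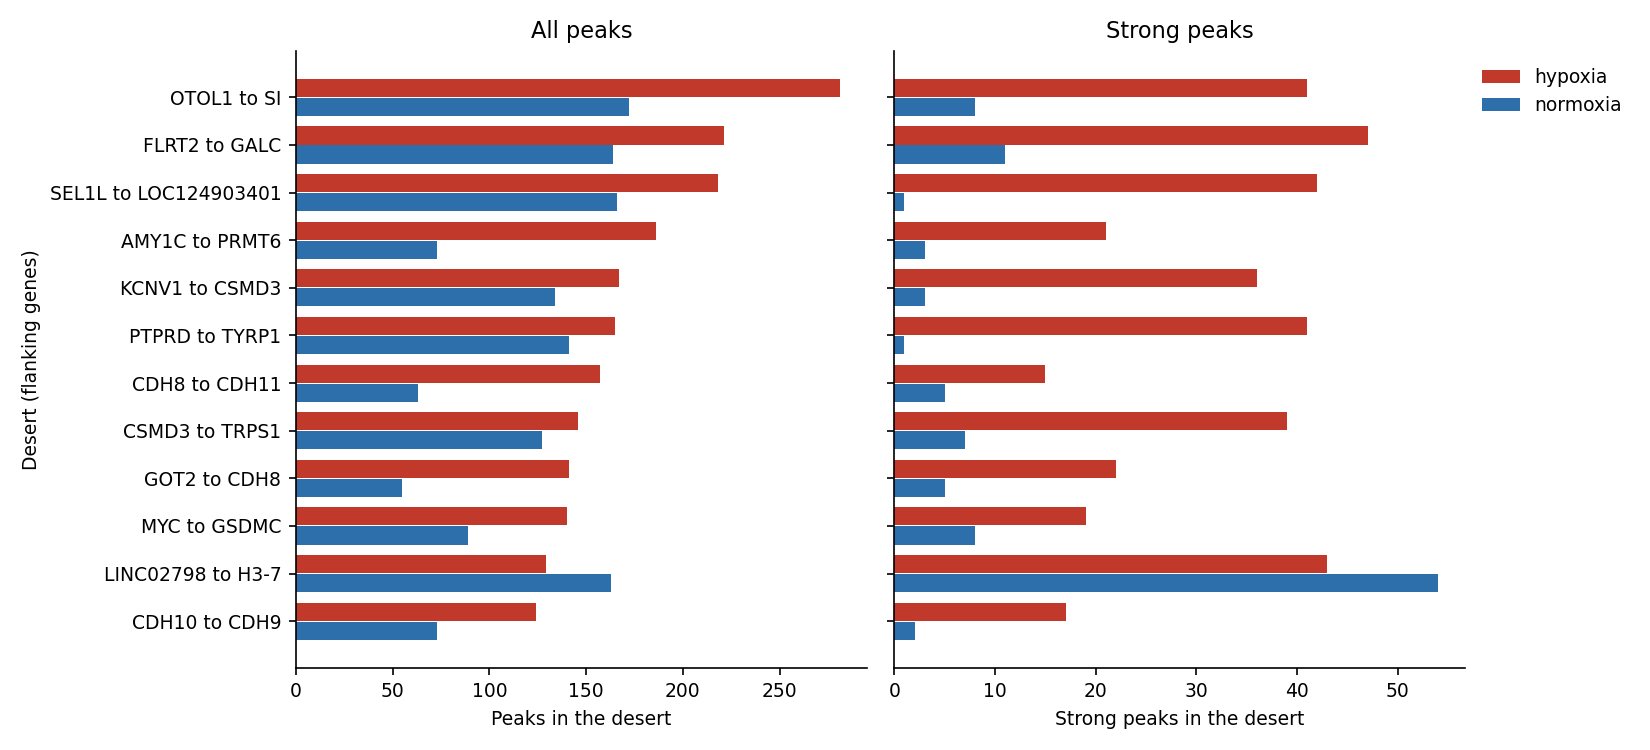
Peaks (left) and strong peaks (right) in each of the 12 deserts that were among the 10 fullest of either list, for hypoxia (red) and normoxia (blue), ordered by hypoxia peaks. In PTPRD to TYRP1 the left bars stood at 165 in hypoxia and 141 in normoxia and the right bars at 41 in hypoxia and 1 in normoxia, and LINC02798 to H3-7 was the only desert shown in which the normoxia bars were the longer ones.

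Cadherin genes flanked 3 of the other full deserts, where hypoxia peaks and strong hypoxia peaks were both more numerous. CDH8 to CDH11 on chromosome 16 had 157 hypoxia and 63 normoxia peaks, a ratio of 2.49 (1.85 to 3.39), with 15 strong in hypoxia and 5 in normoxia. GOT2, the mitochondrial aspartate aminotransferase gene, and CDH8 flanked 141 hypoxia and 55 normoxia peaks, with 22 strong in hypoxia and 5 in normoxia. CDH10 to CDH9 on chromosome 5 had 124 hypoxia and 73 normoxia peaks, with 17 strong in hypoxia and 2 in normoxia. A normoxia peak was met by 9 of the 15, 11 of the 22 and 11 of the 17 strong hypoxia peaks of these 3 deserts. AMY1C, a salivary amylase gene, and PRMT6, an arginine methyltransferase gene, flanked 186 hypoxia and 73 normoxia peaks on chromosome 1, a ratio of 2.55 (1.93 to 3.39).

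Among deserts between genes with at least 500 kb of sequence beyond the limit, IRX1 to ADAMTS16 had the most hypoxia peaks per Mb, and CSMD3 to TRPS1 the most normoxia peaks per Mb. IRX1 to ADAMTS16 had 128 hypoxia and 45 normoxia peaks, of which 22 in hypoxia and 2 in normoxia were strong. It was also among the deserts with the highest local background, at a median of 7.09 reads in hypoxia and 7.47 in normoxia. Over the 143 deserts with at least 5 hypoxia peaks, peaks per Mb and median background had a Spearman correlation of 0.50, and over the 98 with at least 5 normoxia peaks, 0.48. The median background was more than 5% above its list's lowest value in only 4 of the 143 and 15 of the 98. Those 4 had a median of 162.8 hypoxia peaks per Mb, against 32.0 in the others. Those 15 had a median of 83.5 normoxia peaks per Mb, against 10.4 in the others. Backgrounds of the other deserts barely differed, so the correlations do not show a graded relation. The deserts of a list share its library and depth, and the part of copy number or background in these densities was not tested.

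**Figure D5:**
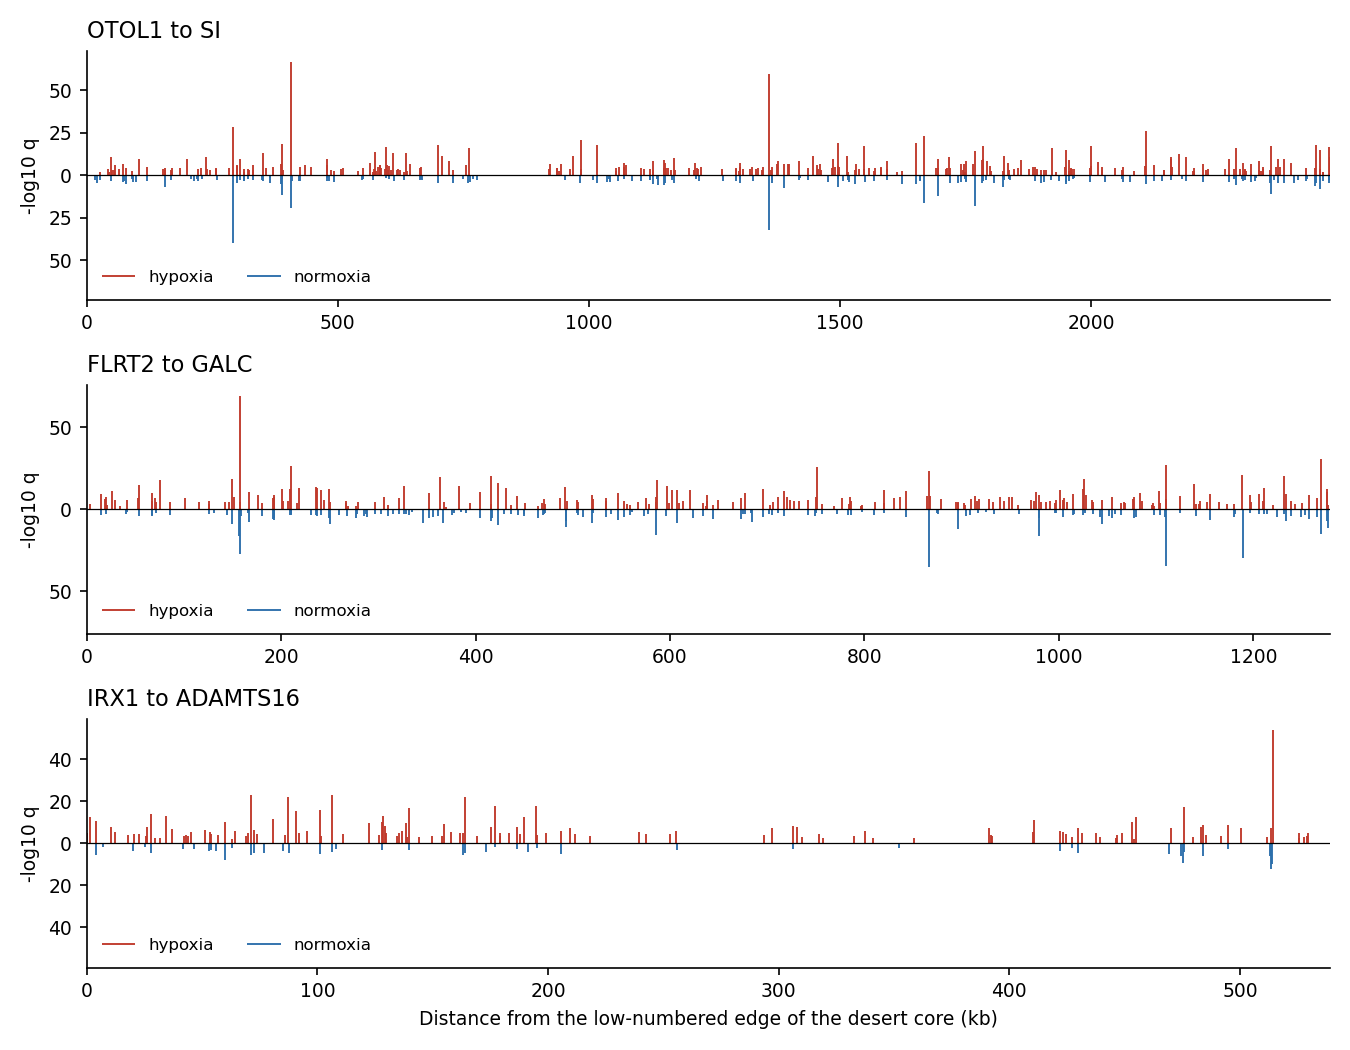
Summits of hypoxia peaks (red, upward) and normoxia peaks (blue, downward) along 3 deserts, by distance in kb from the low-numbered edge of the sequence beyond the limit, with the −log10 q-value of each peak as the height of its line. OTOL1 to SI had 281 hypoxia and 172 normoxia peaks and a 145 kb stretch with none, FLRT2 to GALC had peaks along its whole length, and IRX1 to ADAMTS16 had a run of 77 hypoxia peaks at its left end. That run begins at the limit, so peaks nearer to IRX1 are not counted in it.

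The excess of hypoxia peaks was largest, by number of peaks above the ratio of all deserts, in 5 deserts. GRIK2, a glutamate receptor gene, and HACE1, a ubiquitin ligase gene, flanked 78 hypoxia and 9 normoxia peaks, a ratio of 8.67 (4.34 to 19.7). GALR1, a galanin receptor gene, and SALL3, a zinc finger transcription factor gene, flanked 56 hypoxia and 2 normoxia peaks, with 2 strong in hypoxia and 1 in normoxia. Both lay between genes, and in GRIK2 to HACE1 6 hypoxia peaks and no normoxia peak were strong. The other 3 held a centromere: ZNF254 to UQCRFS1 with 92 hypoxia and 16 normoxia peaks, LOC124903767 to SHCBP1 with 131 hypoxia and 35 normoxia peaks, and KCNJ18 to WSB1 with 85 hypoxia and 17 normoxia peaks.

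Deserts with a centromere differed among themselves in strong peaks. Together they had 928 hypoxia and 460 normoxia peaks, a ratio of 2.02 (1.80 to 2.26), and 151 strong hypoxia and 112 strong normoxia peaks, a ratio of 1.35 (1.049 to 1.74). Deserts between genes had 1031 strong hypoxia and 257 strong normoxia peaks, a ratio of 4.01 (3.50 to 4.62). The desert between LINC02798, an entry listed as protein-coding, and the histone gene H3-7 spans the centromere of chromosome 1 and had 129 hypoxia and 163 normoxia peaks, with 43 strong in hypoxia and 54 in normoxia. Without it, an alternative chosen after seeing the data, the centromere deserts had 108 strong hypoxia and 58 strong normoxia peaks, a ratio of 1.86 (1.34 to 2.61). LOC124905331 to OR11H1 had 27 strong hypoxia peaks and 1 strong normoxia peak, ZNF337 to LOC124904970 had 19 strong in hypoxia and 10 in normoxia, and KCNJ18 to WSB1 had 15 strong in hypoxia and 6 in normoxia. A normoxia peak was met by 15 of the 27, 13 of the 19 and 8 of the 15 strong hypoxia peaks. Of the 200 deserts with a strong peak in either list, 166 had more strong hypoxia peaks, 16 had more strong normoxia peaks and 18 had equal numbers; 7 of those 16 held a centromere. Centromeric sequence is repetitive, and the part of read placement in these numbers was not tested.

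The strongest desert peaks were found in both lists at the same places. The highest −log10 q-value in hypoxia was 202.6, at chr9:63859685-63860411 between LOC107987004 and LOC107987067, where the authors' fold enrichment was 17.4. The normoxia peak there had a value of 66.9 and a fold of 10.9. This desert was classed as between genes by approximate centromere positions, and the part of read placement was not tested there either. Between CSMD3 and TRPS1 the hypoxia peak at chr8:114585805-114586925 had a value of 188.1, and the normoxia peak at the same place 131.7. Past MYC, the oncogenic transcription factor gene whose flanking sequence is known for distant enhancers, the hypoxia peak at chr8:128744658-128745391 had a fold of 21.7 and the normoxia peak a fold of 12.2. At chr17:26603712-26604440, in the centromere desert before WSB1, the folds were 28.1 in hypoxia and 26.2 in normoxia. Other centromere deserts held like pairs: 25.5 in hypoxia and 22.03 in normoxia at chr1:123195537-123195954, and 23.3 in hypoxia and 24.9 in normoxia at chr13:17644722-17645127, before TUBA3C. In the centromere desert of chromosome 20, after ZNF337, the folds were 16.2 in hypoxia and 9.20 in normoxia. Between CTNNA2, an alpha-catenin gene, and SUCLG1 they were 11.7 in hypoxia and 12.2 in normoxia at chr2:81481090-81482268. Fold and q-value belong to each list, and their differences between lists were not read as changes.

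Strong peaks of 1 list alone were moderate in height. The top hypoxia ones lay between FLRT2 and GALC (−log10 q-value 25.8, 47 reads, the nearest normoxia peak 369 bp away) and between PTPRD and TYRP1 (25.6, 47 reads, 2058 bp away). Next were 3 peaks of 38 reads over the lowest background, with a value of 25.1 each, at LOC124901178 to CDH6, DIPK2A to PLOD2 and ZEB2 to ACVR2A. The nearest normoxia peaks were 20783, 50032 and 31842 bp from those 3. ZEB2 is a repressor of epithelial genes, and PLOD2 a collagen-modifying lysyl hydroxylase. In normoxia the top ones were weaker, from 15.3 between ALG10 and ALG10B to 13.9 between CTNNA2 and SUCLG1, with TBX3 to MED13L, CCDC85A to VRK2 and ZNF337 to LOC124904970 between them.

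The widest peaks were up to 2074 bp long in hypoxia and 1726 bp in normoxia. The hypoxia one lay in the centromere desert LOC124903767 to SHCBP1, followed by a peak of 1762 bp between EDIL3 and COX7C. The normoxia one lay between AGA and TENM3, followed by 1677 bp within the immunoglobulin heavy chain locus IGH beyond TMEM121 and 1671 bp between H3Y1 and CDH18. These 3 normoxia peaks each overlapped a hypoxia peak.

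Cell adhesion genes were frequent beside deserts. Of 151 genes in a list of cadherins, protocadherins, contactins, teneurins and other adhesion molecules, 40 flanked a desert (26.5%), against 581 of 18991 protein-coding genes (3.06%). Their 45 deserts held 2115 hypoxia and 824 normoxia peaks, a ratio of 2.57 (2.37 to 2.79), near the 2.43 of all deserts. Developmental transcription factor genes contributed 22 of 183, beside 24 deserts with 690 hypoxia and 291 normoxia peaks, a ratio of 2.37 (2.06 to 2.73). Besides the IRX1 and SALL3 deserts these took in VRK1 to BCL11B, with 97 hypoxia and 36 normoxia peaks, and MCTP2 to NR2F2, with 83 hypoxia and 46 normoxia peaks. For both of these gene lists the interval of the ratio included the ratio of all deserts.

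Deserts beside epithelial and squamous cancer genes had less of a difference in number. Of 15 such genes 5 flanked a desert, and these 5 deserts held 226 hypoxia and 153 normoxia peaks, a ratio of 1.48 (1.20 to 1.83). MYC to GSDMC, with the numbers given above, was the fullest. SLC35B3 to TFAP2A, beside the gene of an epithelial transcription factor, had 46 hypoxia and 30 normoxia peaks, and KCNJ2 to SOX9, a desert known for distant SOX9 enhancers, had 36 hypoxia and 30 normoxia peaks. SOX2 to ATP11B had 3 in each list and BMP2 to HAO1 had 1 in each. The MYC desert supplied most of these peaks, at a ratio of 1.57. Ratios in the others were lower, from 1.53 at SLC35B3 to TFAP2A down to 1 at SOX2 to ATP11B and BMP2 to HAO1. The intervals of those others included 1.

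Of 19 genes of the hypoxia response and of epithelial-mesenchymal transition, 2 flanked a desert. CDH2, the N-cadherin gene, and DSC3, a desmocollin gene, flanked 72 hypoxia and 36 normoxia peaks, with 9 strong in hypoxia and 0 in normoxia. ZEB2 to ACVR2A had 30 hypoxia and 10 normoxia peaks, with 6 strong in hypoxia and 3 in normoxia. With 1 library each, these numbers show what the lists hold and not a response of the genes.

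Desert peaks fell on lncRNA genes about as often as desert sequence did. In deserts between genes, 22.6% of hypoxia summits (21.7 to 23.4%) and 23.8% of normoxia summits (22.4 to 25.3%) lay in a lncRNA span, and lncRNA spans covered 22.7% of that sequence. Their promoters were seldom marked. Of 569 desert lncRNA genes, 45 had a hypoxia peak at a promoter window (7.91%) and 21 had a normoxia peak (3.69%). Over all 11145 autosomal lncRNA genes the percentages were 34.2 in hypoxia and 28.2 in normoxia. Desert genes marked in hypoxia only numbered 31 (5.45%) and in normoxia only 7 (1.23%), against 8.36% and 2.30% over all autosomal lncRNA genes.

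The marked promoters differed from the unmarked ones in base composition. The median GC content was 59.0% in the 56 desert windows with a peak and 38.3% in the 585 without, and the median number of CpG was 13.5 and 2. LINC02226, shown above with 3 HIF cores, starts back to back with MIR4458HG between MTRR, a methionine synthase reductase gene, and SEMA5A, a semaphorin gene. They share a peak with a −log10 q-value of 80.2 and fold of 12.04 in hypoxia, and a value of 49.3 and fold of 10.3 in normoxia. LINC00662 and its neighbour LINC02987, in the chromosome 19 centromere desert, share a peak with values of 98.7 in hypoxia and 42.8 in normoxia. LINC02015, whose printed window is CpG-poor, had 29.6 in hypoxia and 29.0 in normoxia.

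Of the promoters marked in 1 list, LINC01815 between CTNNA2 and SUCLG1 had a hypoxia peak of 21.99 and LINC00879 between NSUN3 and EPHA6 one of 13.1, with no normoxia peak at either. LINC02103 between CDH9 and LOC124901178 had a normoxia peak of 11.5 and no hypoxia peak. LINC01706, in the BMP2 desert, had the single peak of that desert in each list, with 4.50 in hypoxia and 14.5 in normoxia.

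HIF cores were more frequent in marked than in unmarked desert windows. A HIF core (ACGTG or GCGTG) was present in 23 of 56 marked desert lncRNA windows (41.1%, 28.1 to 55.02%) and 17.9% of the 585 unmarked ones (14.9 to 21.3%), against 37.8% of autosomal lncRNA windows and 48.3% of all autosomal promoter windows. The 56 marked windows came from 51 genes and some overlap, so the cores shared by LINC02226 and MIR4458HG count in both windows. The intervals treat windows as separate. AP-1 and TEAD are factors of growth and organ-size signalling, and their motifs were too rare in marked windows to be set apart. The AP-1 motif TGANTCA was present in 3 of 56 marked (5.36%, 1.12 to 14.9%) and 81 of 585 unmarked windows (13.8%, 11.2 to 16.9%), against 10.3% of autosomal lncRNA and 7.67% of all windows. In the 15 windows with a peak in both lists it was present in 2 (13.3%). The TEAD motif ACATTCC was present in 1 of 56 marked (1.79%, 0.0452 to 9.55%) and 32 of 585 unmarked windows (5.47%, 3.77 to 7.63%). Both strands were searched, so a CACGTG run counts as overlapping HIF cores, and the HIF cores are richer in G and C than the other motifs. A match is a run of letters and not a bound site.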

How the data were processed

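H4K5ac ChIP-seq was done in FaDu cells with 1 hypoxia and 1 normoxia library, read from a single end over 75 bp, per the labels' protocols. The peak lists were deposited by the authors as 1 file for each library. Per the submitters' processing notes the build was hg38, and MACS2 and SICER are named there without versions or settings. Whether a control library was used is not stated in these sources. For every peak the authors deposited a summit position, a fold enrichment (a ratio), the −log10 of p and of q, and an integer score. This deposited score is 10 times −log10 p without its decimals, for 99.998% of hypoxia and 100% of normoxia peaks.

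Distances ran from the summit to 18991 protein-coding spans of the RefSeq table (GRCh38.p14), after 135 entries with scaffold coordinates were left out, which changed no membership. A desert is the sequence more than 500000 bp from both neighbouring spans. Centromere positions were entered by hand and are approximate. Overlap meant at least 1 bp. Pileup and background were solved from fold = (pileup + 1) / (background + 1) and a Poisson p-value; solved pileups were whole numbers, within 0.02, in 100% of both lists. Python 3.11.15, numpy 2.4.6, pandas 2.3.3 and scipy 1.17.1 were used, and the functions were tested on simulated data. Intervals are 95% exact (Clopper-Pearson), for ratios conditional on the total. Depth was not analysed beyond the lowest background, 3.24 reads in hypoxia and 3.13 in normoxia.

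The members and gene lists were chosen with earlier results of these data known. Deserts named are the 10 fullest and 5 densest per list, the 5 with the largest hypoxia excess and deficit, those of the 5 strongest, 5 strongest unshared and 3 widest peaks per list, and up to 4 per gene list. The desert of the longest run, the fifth desert of the epithelial list, the centromere desert before OR11H1 and the lncRNA promoters were named after their values were seen. Alternatives were another peak threshold, list length, distance limit, gene set, overlap and linking distance. The planned search of peak sequence was not run. Some deserts and peaks that met the naming rule are not reported here.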

Additional observations from a re-analysis of the deposited data

How the results depend on the processing

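Each result was recomputed under each alternative that bears on it, 93 values in all. The ratio of hypoxia to normoxia desert peaks stayed above 1 under every alternative except distance to every RefSeq gene, where it turned to below 1. The cause of these shifts was not tested, beyond the smaller or larger set of peaks that each setting keeps. With strong peaks alone in each list, there were 1185 hypoxia and 370 normoxia peaks (2.48% of the hypoxia and 1.26% of the normoxia list), a ratio of 3.20. Of hypoxia peaks 23.4% were overlapped, 28.2% linked and 30.4% in the 10 fullest deserts, with a median width of 523 bp; for normoxia the values were 73.8%, 18.9%, 34.6% and 552 bp. With the hypoxia list cut to the length of the normoxia list, there were 4315 hypoxia and 3961 normoxia peaks (3.65% of the hypoxia and 3.36% of the normoxia list), a ratio of 1.09. Of hypoxia peaks 36.9% were overlapped, 57.5% linked and 24.4% in the 10 fullest deserts, with a median width of 378 bp; for normoxia the values were 42.3%, 64.8%, 32.9% and 304 bp. At a limit of 250000 bp there were 20846 hypoxia and 8568 normoxia peaks (8.20% of the hypoxia and 7.26% of the normoxia list), a ratio of 2.43. Of hypoxia peaks 24.4% were overlapped, 79.5% linked and 12.47% in the 10 fullest deserts, with a median width of 281 bp; for normoxia the values were 58.9%, 66.4%, 20.7% and 302 bp. At a limit of 1000000 bp there were 2355 hypoxia and 1031 normoxia peaks (0.926% of the hypoxia and 0.874% of the normoxia list), a ratio of 2.28. Of hypoxia peaks 25.7% were overlapped, 73.0% linked and 39.7% in the 10 fullest deserts, with a median width of 283 bp; for normoxia the values were 58.5%, 57.8%, 51.9% and 309 bp. With distances to every RefSeq gene there were 195 hypoxia and 252 normoxia peaks (0.0767% of the hypoxia and 0.214% of the normoxia list), a ratio of 0.774. Of hypoxia peaks 64.6% were overlapped, 53.3% linked and 91.3% in the 10 fullest deserts, with a median width of 311 bp; for normoxia the values were 50.4%, 53.2%, 92.5% and 358 bp. Without deserts holding a centromere or at a chromosome end, an alternative chosen after seeing the data, there were 8633 hypoxia and 3490 normoxia peaks (3.40% of the hypoxia and 2.96% of the normoxia list), a ratio of 2.47. Of hypoxia peaks 23.9% were overlapped, 76.2% linked and 21.1% in the 10 fullest deserts, with a median width of 280 bp; for normoxia the values were 59.2%, 66.5%, 34.5% and 302.5 bp. An overlap of at least 50% of the shorter peak left 21.98% of hypoxia and 53.9% of normoxia peaks overlapped. Within 5 kb, 54.5% of hypoxia and 42.4% of normoxia peaks were linked. Within 50 kb, 95.5% of hypoxia and 87.9% of normoxia peaks were linked. Distance from the peak's nearest edge gave 9612 hypoxia and 3959 normoxia peaks. Strong peaks were recomputed with alternatives chosen after seeing the data. For at least 25 reads, the hypoxia to normoxia ratio was 2.82 and the share of hypoxia peaks without a normoxia peak 39.5%. For a −log10 q-value of at least 20, the hypoxia to normoxia ratio was 1.99 and the share of hypoxia peaks without a normoxia peak 6.601%. For the deserts between genes alone, the hypoxia to normoxia ratio was 4.01 and the share of hypoxia peaks without a normoxia peak 36.6%. Without LINC02798 to H3-7, also chosen after seeing the data, the ratio of strong peaks in deserts with a centromere was 1.86, against 1.35 with it. No paired analysis was possible because each condition had 1 library. For the same reason no library could be left out. Depth is not given by the files, the condition cannot be told apart from the library, and no sequence of the peaks was at hand, so repeats, base composition and motifs in the peaks themselves were not analysed here.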
